A study of Mus musculus with 12 samples.

Results

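The voltage-gated calcium and sodium channel genes were examined in islet RNA of Tg7 and Wt mice. Members were chosen by name as every row of the count table whose mouse symbol starts with Cacn or consists of Scn, a number and a or b. This gave 41 rows for 40 genes, out of 37991 rows in all, with 26 Cacn genes and 14 Scn genes. Scn8a has a second, short row (ENSMUSG00000090536), and Scn2a is listed as Scn2a1 in the annotation. The 4 groups were Wt 2w, Tg7 2w, Wt 12w and Tg7 12w, with 3 libraries each, from male mice labelled as C57BL/6. Tg7 mice carry a β-cell-specific miR-7a2 transgene, for which no promoter is named in the sources used here, and the Wt mice were littermates. The line was kept by crossing males to C57BL/6J females. Islets of at least 3 animals were pooled for each library, so the tests measure the spread between pools rather than between mice. Islets hold several cell types, and the transgene is active in only one of them.

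Voltage-gated calcium channels open when the membrane depolarises and let calcium enter the cell. In β-cells this follows closure of KATP channels and triggers insulin release, with L-type channels carrying much of the current. Most of these channels consist of a pore-forming α1 subunit with an α2δ and a β subunit, which set their surface level and gating. Several genes named as γ subunits encode TARPs, which are auxiliary subunits of AMPA-type glutamate receptors. Voltage-gated sodium channels have a pore-forming α subunit and smaller β subunits, and shape action potentials in neurons and endocrine cells.

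Total counts on genes ranged from 11610697 to 17515758 per library. The β-cell markers Ins1 and Ins2 took 1.84% to 8.24% of the counts in Tg7 libraries and 10.1% to 30.0% in Wt libraries. Among the Wt 12w libraries, replicate 4 stood apart, with an insulin share of 14.9% against 30.0% and 27.0% in the others, and values without it are given where a call rests on it. The deposited counts were normalised by TMM in edgeR, and groups were compared by its quasi-likelihood test. Adjusted p-values cover all 15961 genes that passed the expression filter, and a gene is called at an adjusted p under 0.05. Levels of 1 gene across libraries are given as normalised CPM, and levels compared between genes as RPKM, that is per kilobase of annotated exon. In whole islets, fewer cells of a type and less RNA per cell cannot be told apart.

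The mature sequence of the overexpressed miRNA and the seed matches in channel mRNAs are shown because a miRNA pairs with an mRNA mainly through its seed. The RefSeq entry for miR-7a-5p is given with its seed (bases 2 to 8) in capitals. The 7-base complement of the seed, GTCTTCC, occurred in the annotated 3′ UTR of 4 channel genes, and each match is given with 8 bases on either side, 5′ to 3′ on the mRNA strand, with the match in capitals.
miR-7a-5p: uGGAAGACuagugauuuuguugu
Cacna1e, chr1:156242057-156242079 (mm9, minus strand): gctccttgGTCTTCCagtcgagt
Cacng7, chr7:3367366-3367388 (mm9, plus strand): aaacctccGTCTTCCattttctg
Scn2b, chr9:44937760-44937782 (mm9, plus strand): ctgctgatGTCTTCCtttattga
Scn4a, chr11:106180062-106180084 (mm9, minus strand): cggtctcaGTCTTCCtgctacct
The matches in Cacna1e and Cacng7 were followed by an A, and those in Scn2b and Scn4a were not. Of the 32 tested channel rows, 12.5% held the match in the annotated 3′ UTR, against 14.4% of all tested genes with such a UTR. The median 3′ UTR was 2098.5 bases long in the tested channel rows and 1151 bases in all tested genes. A match is a description and does not show binding. As described below, Cacng7 and Scn2b were upregulated in 12w Tg7 islets, whereas Cacna1e and Scn4a were not called between Tg7 and Wt at either age.

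Most channel genes were detected in islet RNA, at levels that spanned more than 3 orders of magnitude. A total of at least 50 counts over the 12 libraries was reached by 34 of the 41 rows, 21 Cacn and 13 Scn. The 7 rows below this limit included Scn10a (1 count), Cacng6 (13), Cacng8 (15), Cacng5 (17), Cacna1s (19) and Cacng1 (28), and Scn1a (56) and Scn11a (62) were just above it. Among them are the α1 subunit of skeletal muscle (Cacna1s) and a sodium channel of sensory neurons (Scn10a). The expression filter further removed Scn1a and Scn11a, which left 32 rows for the tests. Cacng3 passed this filter through its Tg7 libraries alone, and Cacna1f through its 3 Tg7 12w libraries with 1 Wt 12w library. Cacng3 and Cacna1f were bound to be higher in those libraries, so their counts or CPM are given without a fold change or p-value. Counts of members between Tg7 and Wt are also given without Cacng3, and at 12w without both genes. Those between the ages in Tg7 are also given without Cacna1f. Counts between the ages in Wt and for the difference of effects keep both genes. This choice was made after the data were seen. Cacnb4 and Scn4b also needed Tg7 libraries to pass, with 2 and 1 Wt libraries above the limit of the filter. They are kept in all counts and medians and were called in no comparison.

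Cacnb3, a cytoplasmic β subunit, had the highest mean over the 12 libraries with 32.5 RPKM, followed by the α2δ subunit Cacna2d1 with 24.03 RPKM. Among the pore-forming α1 genes, the L-type channel Cacna1d was highest with 14.6 RPKM. The P/Q-type channel Cacna1a reached 8.24 RPKM and the second L-type channel Cacna1c 5.90 RPKM. The N-type channel Cacna1b and the T-type channel Cacna1h had 2.28 and 1.30 RPKM, and the R-type channel Cacna1e only 0.0559 RPKM. Cacng4 led the γ class with 7.11 RPKM. Scn3a and Scn9a, sodium channels of neurons and neuroendocrine cells, led the sodium α class with 5.93 and 4.95 RPKM. The sodium β subunit Scn3b had 3.48 RPKM.

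**Figure D1:**
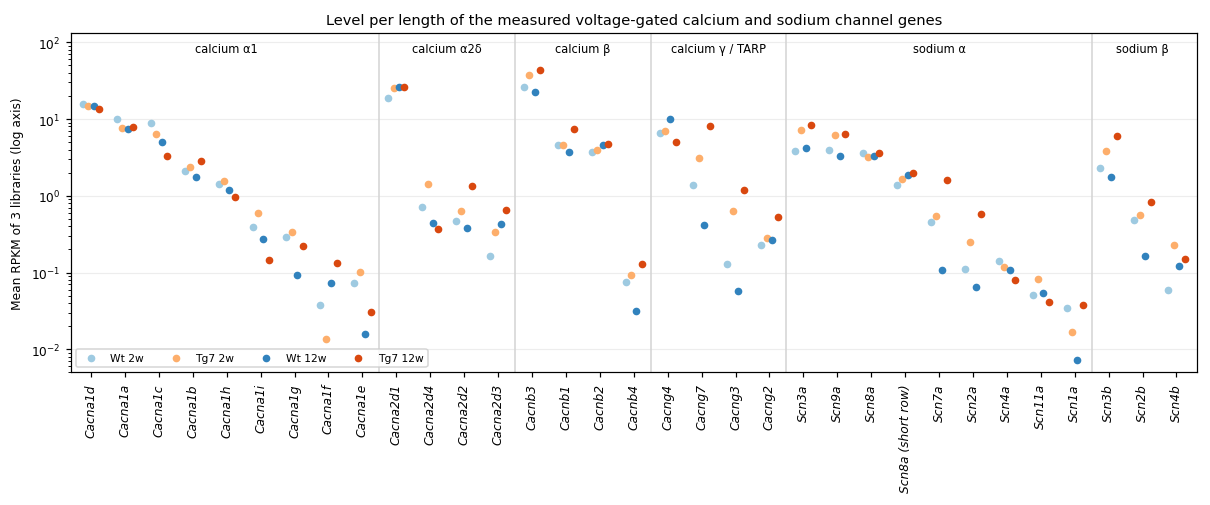
Mean RPKM of 3 libraries (log axis) for 33 channel rows with at least 50 counts, by class and ordered within each class by the mean of all libraries; each colour is 1 group. Cacnb3, Cacna2d1 and Cacna1d are the most abundant, and Cacng7, Cacng3, Scn2a and Scn7a show the widest gap between Tg7 12w (dark orange) and Wt 12w (dark blue). Cacng3 passed the expression filter through its Tg7 libraries alone, and its gap is not used as a result.

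The most abundant pore-forming gene, Cacna1d (ENSMUSG00000015968), was not called in any comparison. Its level was 132, 142 and 160 CPM in the Wt 2w libraries, 137, 149 and 126 CPM in Tg7 2w, 119, 127 and 167 CPM in Wt 12w and 121, 134 and 125 CPM in Tg7 12w. The groups overlapped throughout. The log2 fold change of Tg7 over Wt was −0.07 at 2w (95% interval −0.37 to 0.22) and −0.12 at 12w (95% interval −0.42 to 0.18). The annotated exons of Cacna1d share 518 bases with Chdh on the other strand, and reads there cannot be assigned without knowing whether the counting used strand, which the sources do not state. The highest α2δ gene, Cacna2d1, had means of 18.9 ± 0.996, 25.2 ± 1.46, 25.9 ± 9.01 and 26.1 ± 0.833 RPKM in Wt 2w, Tg7 2w, Wt 12w and Tg7 12w (SD, n = 3). It was not called, with a log2 fold change of 0.41 ± 0.19 (SE) at 2w and 0.01 ± 0.19 at 12w. Cacna1a, Cacnb2 and both rows of Scn8a were likewise not called in any of the 5 comparisons.

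The first comparison asked how Tg7 islets differed from Wt islets at 2w, an age at which the Tg7 mice are still normoglycaemic. Cacnb3, Cacng7, Scn3a and Scn3b were upregulated and no channel gene was downregulated. These 4 of 32 tested rows (12.5%) compare with 10.6% of all tested genes called, 6.07% higher and 4.55% lower. Without Cacng3 the calls were 4 of 31 (12.9%). The median log2 fold change was 0.29 over the tested channel rows, 0.28 without Cacng3, and 0.03 over all tested genes.

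Scn3a (ENSMUSG00000057182), which encodes the sodium channel α subunit Nav1.3, showed the clearest change. It was at 42.5, 44.6 and 57.2 CPM in the Wt 2w libraries and at 85.5, 90.9 and 97.7 CPM in the Tg7 2w libraries, with no overlap. The log2 fold change was 0.92 ± 0.14 (SE; adjusted p = 0.000944). Cacnb3 rose from 89.5, 82.3 and 75.2 CPM in Wt to 108, 126 and 113 CPM in Tg7, a log2 fold change of 0.49 ± 0.12 (adjusted p = 0.0198). Scn3b, a sodium channel β subunit without a covalent link to its α subunit, was at 10.3, 11.4 and 10.1 CPM in Wt and 15.7, 22.7 and 14.95 CPM in Tg7, a log2 fold change of 0.75 ± 0.18 (adjusted p = 0.0202). The TARP gene Cacng7 was at 2.61, 4.13 and 2.39 CPM in Wt and 6.51, 6.82 and 7.35 CPM in Tg7, a log2 fold change of 1.19 ± 0.28 (adjusted p = 0.0145). All Tg7 libraries lay above all Wt libraries for these 4 genes.

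The count at 2w depended on single libraries. Omitting replicate 3 of Wt 2w left 1 call, with 4.59% of all tested genes called, and omitting replicate 1 of Wt 2w or replicate 2 of Tg7 2w left 2, with 5.54% and 8.21%. Omitting replicate 2 of Wt 12w gave 8 calls, with 11.8% of all tested genes, and omitting its replicate 4 gave 10, with 18.7%. Scn3a remained called with each of the 12 libraries left out, whereas the other 3 each lost their call on omitting certain single libraries. In those fits the log2 fold changes were 0.42 to 0.49 for Cacnb3, 1.04 to 1.09 for Cacng7 and 0.53 to 0.72 for Scn3b. The call of Cacnb3 was lost on omitting replicate 2 or 3 of either 2w group (adjusted p 0.0529 to 0.118), that of Cacng7 on omitting replicate 1 or 3 of Wt 2w (0.0701 and 0.0877), and that of Scn3b on omitting replicate 1 or 3 of Wt 2w or replicate 2 of Tg7 2w (0.0787 to 0.0935). DESeq2 called 8 channel rows, 7 higher and 1 lower, and upper-quartile factors gave 6 higher and 1 lower, all including these 4 genes, with 14.6% and 11.4% of all tested genes called. Several genes lay close to the threshold. Cacna1c had a log2 fold change of −0.46 ± 0.14 (adjusted p = 0.051) and was called lower by DESeq2 (adjusted p = 0.0287). It was also called with upper-quartile factors (adjusted p = 0.0495), with each age fitted alone (0.0134) and on omitting replicate 1, 2 or 4 of Wt 12w (0.0321, 0.0439 and 0.00442). With library size alone its adjusted p was 0.352. Scn9a (0.68 ± 0.21, adjusted p = 0.0543) and Cacna2d4 (0.98 ± 0.31, adjusted p = 0.0559) were on the higher side.

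At 12w, when the Tg7 mice are hyperglycaemic, the same comparison called 15 of the 32 tested rows (46.9%), 13 higher and 2 lower. Without Cacng3 it called 14 of 31 (45.2%), 12 higher and 2 lower. Of all tested genes 23.6% were called, 12.5% higher and 11.2% lower. With Cacng3 counted, the upregulated rows were 7 of the 21 tested Cacn genes and 6 of the 11 tested Scn rows, and the downregulated ones were Cacna1c and Cacng4. The median log2 fold change was 0.75 over the tested channel rows, 0.67 without Cacng3, and −0.01 over all tested genes. Without both Cacng3 and Cacna1f the calls were 14 of 30 (46.7%) and the median was 0.63. With library size alone in place of TMM factors, the median of all genes moved to 0.43 and the split became 17 higher and 0 lower. That scaling called 34.8% of all tested genes, 5198 higher and 360 lower. Of the 15 calls, 12 held with each of the 12 libraries left out in turn. Cacng3 is counted among them, but its call is not used as a result, since it passed the filter through its Tg7 libraries alone.

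**Figure D2:**
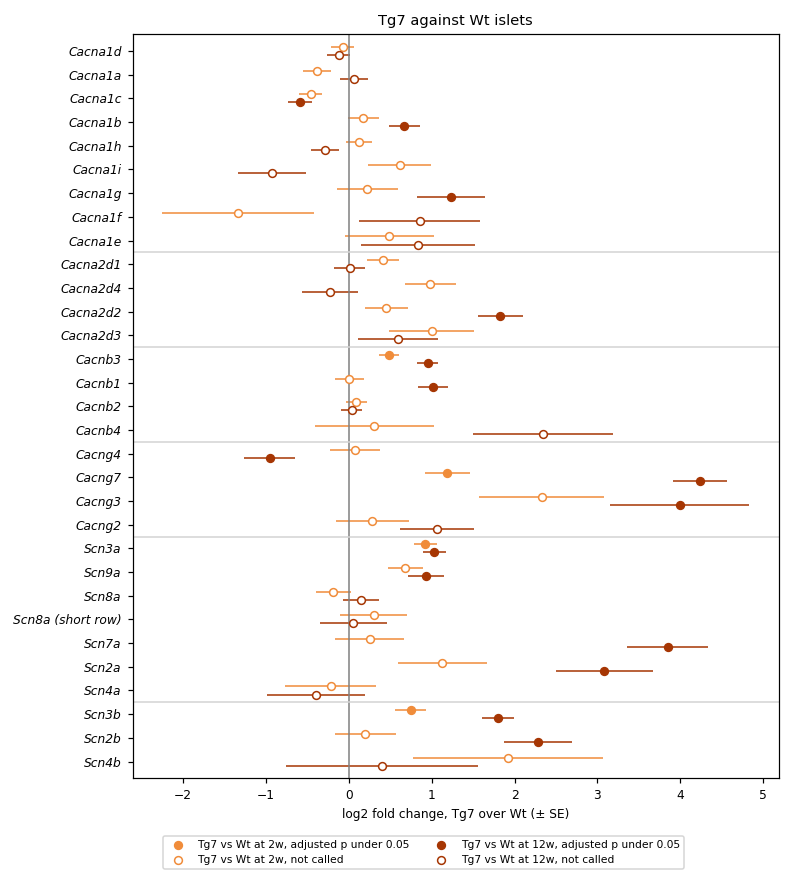
Log2 fold change of Tg7 over Wt (± SE) at 2w (light) and 12w (dark) for 31 tested rows, ordered as in the plot of levels; filled points have an adjusted p under 0.05 and lines separate the classes. Cacng3 passed the expression filter through its Tg7 libraries alone, and its filled point is not used as a result. The points at 12w reach 4.24 for Cacng7, while Cacna1d and Cacna2d1 lie near 0 at 12w.

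Among the pore-forming calcium channels, the L-type gene Cacna1c was downregulated and 2 others were upregulated. Cacna1c (ENSMUSG00000051331) was at 37.2, 39.9 and 55.3 CPM in Wt 12w and at 30.2, 29.6 and 28.6 CPM in Tg7 12w, with all Tg7 libraries below all Wt libraries. The log2 fold change was −0.59 ± 0.14 (adjusted p = 0.00952), and −0.39 without Wt 12w replicate 4 (adjusted p = 0.0201), the highest Wt library. With library size alone the Cacna1c value was −0.16 and no longer called (adjusted p = 0.543). The N-type gene Cacna1b was at 21.8, 15.8 and 15.5 CPM in Wt and at 27.2, 29.2 and 27.8 CPM in Tg7, a log2 fold change of 0.67 ± 0.19 (adjusted p = 0.0217). Omitting replicate 2 or 4 of Wt 12w, or replicate 2 or 3 of Tg7 12w, ended that call, with adjusted p-values from 0.0538 to 0.0709. The T-type gene Cacna1g was low, at 0.756, 1.27 and 0.80 CPM in Wt and 2.71, 2.77 and 1.26 CPM in Tg7. Its groups overlapped, and its log2 fold change of 1.23 ± 0.42 (adjusted p = 0.0453) was called at the edge of the threshold. That call was lost without the expression filter (adjusted p = 0.0637) and with each age fitted alone (0.1145). It was kept on omitting replicate 1 or 3 of Tg7 2w, replicate 2 of Wt 12w or replicate 3 of Tg7 12w, and lost on omitting any of the other 8 libraries (adjusted p 0.0578 to 0.152).

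Of the auxiliary calcium channel subunits, Cacna2d2, Cacnb1 and Cacnb3 were upregulated. Cacna2d2, an α2δ subunit, was at 2.14, 1.59 and 3.07 CPM in Wt 12w and 8.52, 8.08 and 7.78 CPM in Tg7 12w. Its log2 fold change was 1.83 ± 0.27 (adjusted p = 0.000311), with no overlap between groups. Among the β subunits, Cacnb3 was at 62.4, 79.8 and 70.3 CPM in Wt and at 131, 143 and 137 CPM in Tg7, a log2 fold change of 0.95 ± 0.12 (adjusted p = 9.45e-05). Cacnb1 went from 14.9, 21.8 and 13.7 CPM to 32.1, 37.0 and 32.9 CPM, a log2 fold change of 1.01 ± 0.18 (adjusted p = 0.0012). These 3 genes were called in every alternative and with every library left out. Summed over the class, β subunits were at 31.1 ± 3.89 RPKM in Wt 12w and 56.3 ± 2.65 RPKM in Tg7 12w (SD, n = 3), while α1 genes summed to 30.6 ± 2.21 and 29.0 ± 1.28 RPKM.

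Cacng7 had the largest log2 fold change of all tested channel rows at 12w, and the γ class also held a downregulated gene. Cacng7 (ENSMUSG00000069806), a type II TARP, was at 0.504, 1.43 and 0.80 CPM in Wt 12w and at 18.4, 19.5 and 16.02 CPM in Tg7 12w. All Tg7 libraries were more than 10 times as high as any Wt library. The log2 fold change was 4.24 ± 0.33 (adjusted p = 1.27e-06), or 18.9-fold. Cacng3, a type I TARP, had 0, 0 and 4 counts in the Wt 12w libraries and 29, 46 and 23 counts in the Tg7 12w libraries. Cacng4, by contrast, was at 46.3, 44.4 and 15.5 CPM in Wt and 18.5, 18.5 and 17.4 CPM in Tg7. Wt 12w replicate 4 was below every Tg7 library, so the groups overlapped. The Cacng4 log2 fold change was −0.96 ± 0.31 (adjusted p = 0.0372), −1.32 without that replicate (adjusted p = 0.000121) and −0.74 without Wt 12w replicate 1 or 2 (adjusted p = 0.122 and 0.126), and its call was also lost on omitting any Wt 2w or Tg7 12w library (adjusted p 0.0509 to 0.109). The call was lost as well with library size alone (−0.47, adjusted p = 0.194), with upper-quartile factors (0.0631) and with each age fitted alone (0.08).

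Of the sodium channel α subunits, 4 were upregulated at 12w and none downregulated. Scn3a was at 60.5, 50.2 and 46.1 CPM in Wt 12w and 109, 111 and 99.7 CPM in Tg7 12w, a log2 fold change of 1.03 ± 0.14 (adjusted p = 0.000152). Scn9a, which encodes Nav1.7, was at 35.8, 21.1 and 49.6 CPM in Wt and 65.0, 68.3 and 70.6 CPM in Tg7, a log2 fold change of 0.93 ± 0.21 (adjusted p = 0.00655). Both are among the most abundant members of their class. Scn2a, a main sodium channel of brain neurons, was far lower, at 0.504, 0.238 and 1.07 CPM in Wt and 6.26, 5.70 and 4.12 CPM in Tg7, a log2 fold change of 3.09 ± 0.58 (adjusted p = 0.0018). Scn7a (ENSMUSG00000034810), which encodes the atypical sodium-sensing channel Nax known from glia and Schwann cells, was at 0.756, 0.556 and 1.07 CPM in Wt and 9.81, 11.8 and 13.5 CPM in Tg7. Its log2 fold change was 3.85 ± 0.49 (adjusted p = 8.95e-05), or 14.4-fold. For all 4 genes the Tg7 libraries lay above the Wt libraries, and the calls held with every library left out.

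The sodium β subunits Scn2b and Scn3b were upregulated at 12w, and Scn4b was not called. Scn3b was at 7.56, 9.05 and 7.33 CPM in Wt 12w and 23.7, 30.2 and 29.5 CPM in Tg7 12w, a log2 fold change of 1.80 ± 0.19 (adjusted p = 2.06e-05). Scn2b, which binds its α subunit through a disulphide bond, was at 0.378, 1.27 and 0.600 CPM in Wt and 4.29, 3.21 and 3.89 CPM in Tg7, a log2 fold change of 2.29 ± 0.41 (adjusted p = 0.00128). Both calls held in every alternative. Of the rows too low to test, Cacna1s and Cacng6 each had 0 counts over the Wt 12w libraries and 12 counts over the Tg7 12w libraries. Against a floor of 3 counts over the Wt 12w group, that is 2.67-fold higher. The 12 Tg7 counts were taken as exact, so their counting error is not covered. By library the Tg7 12w counts were 8, 4 and 0 for Cacna1s and 5, 6 and 1 for Cacng6. Scn1a had 3 counts in Wt 12w and 22 in Tg7 12w, a ratio of 4.89 (95% counting interval 1.47 to 25.5). Its libraries overlapped, with 0, 3 and 0 counts in Wt 12w and 14, 3 and 5 in Tg7 12w. At 2w Scn1a went the other way, with 21 counts in Wt and 10 in Tg7. Neither the floor nor the interval covers the spread between pools. Scn11a had 12 counts in Wt 12w and 13 in Tg7 12w, and Cacng5 had 7 and 5.

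**Figure D3:**
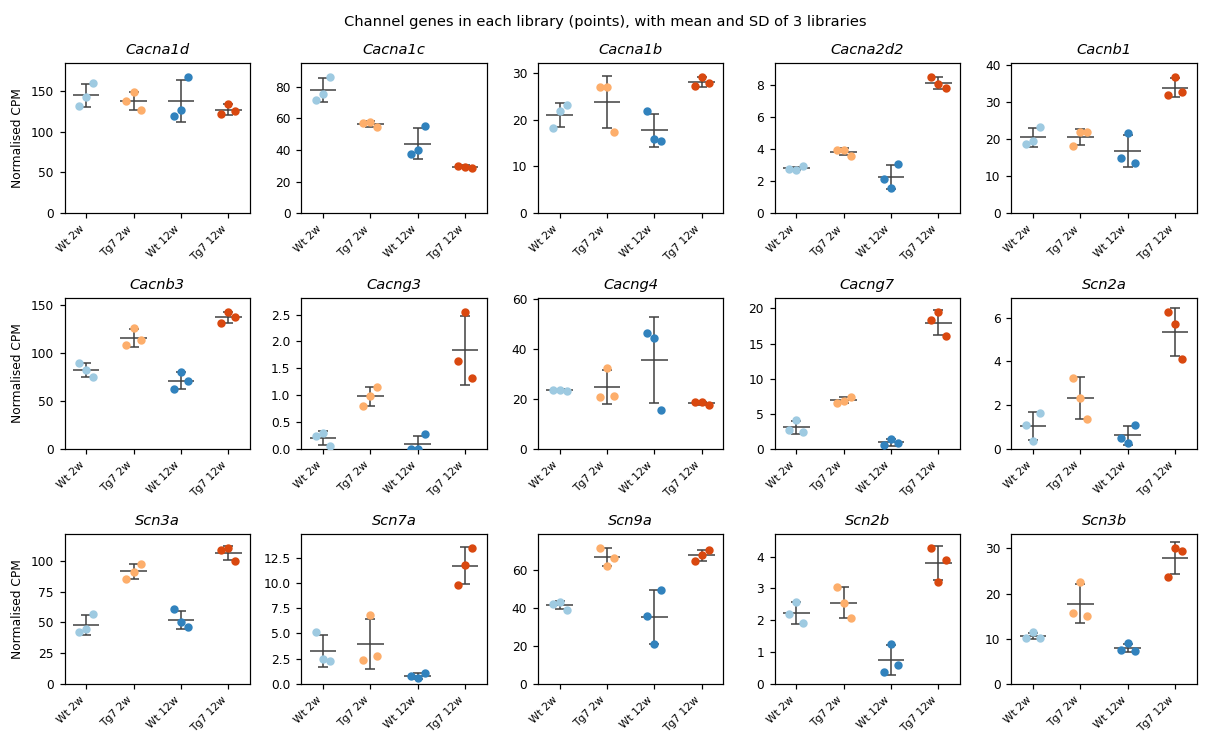
Normalised CPM of 15 channel genes in each library (points), with the mean and SD of the 3 libraries of each group; every axis starts at 0. Cacna1d overlaps in all groups, Cacna1c falls with age and in Tg7, and Cacng7, Scn2a, Scn7a and Scn2b are highest in all 3 Tg7 12w libraries.

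Markers of other cell types also differed at 12w. All 5 endothelial markers and 7 of 8 stellate, pericyte and fibroblast markers were called higher in Tg7. The summed level of the stellate list was 57.1 to 58.6 RPKM in Tg7 12w and 16.3 to 30.6 RPKM in Wt 12w, and that of the endothelial list 184 to 202 and 86.3 to 103 RPKM. Of the Schwann cell markers 3 of 6 were called higher (Sox10, Cdh19 and Ngfr), with sums of 6.01 to 7.09 RPKM in Tg7 and 2.81 to 5.44 RPKM in Wt. Of the neuronal markers 5 of 7 were called higher, with sums of 70.2 to 77.8 RPKM in Tg7 and 47.5 to 61.9 RPKM in Wt. None of these markers was at 0 counts in any group. The channel genes called higher in Tg7 at 12w are given above, and none was assigned to a cell type here. The study reported that stellate cell proportions did not change significantly in its single-cell data of Tg7 islets. At 2w the stellate sum was 80.1 to 100.7 RPKM in Tg7 and 58.6 to 81.2 RPKM in Wt. The endothelial sum at 2w was 217 to 233 RPKM in Tg7 and 177 to 238 RPKM in Wt. For Schwann cell markers it was 4.05 to 9.80 and 3.95 to 6.79 RPKM, and for neuronal markers 37.5 to 62.8 and 57.1 to 59.6 RPKM. The part of such cells in the 12w increases was not tested. No alpha, delta, PP or acinar marker was called at 12w, while 6 of 8 β-cell markers and 1 of 4 macrophage markers were lower and 1 of 4 tested ductal markers was higher. At 2w, 7 of 8 β-cell markers were lower, 4 of 8 stellate markers and the PP marker Ppy were higher, 1 of 7 neuronal markers was higher and 1 lower, and no Schwann or endothelial marker was called.

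The difference between the Tg7 effects at 12w and at 2w was tested directly. Cacng7 and Scn7a had a larger effect at 12w, and no channel gene had a significantly smaller one. These 2 of 32 tested rows (6.25%) compare with 1.18% of all tested genes, 0.871% higher and 0.307% lower. The difference of log2 fold changes was 3.05 ± 0.42 for Cacng7 (adjusted p = 0.00268) and 3.60 ± 0.64 for Scn7a (adjusted p = 0.0145). Both calls were made under all alternatives, including the omission of any single library. For Scn7a the Tg7 effect at 2w was 0.25 ± 0.42 (adjusted p = 0.748), with overlapping groups at 5.10, 2.50 and 2.29 CPM in Wt 2w and 2.35, 6.82 and 2.73 CPM in Tg7 2w. Cacnb1 (1.01 ± 0.25, adjusted p = 0.0766), Scn3b (1.05 ± 0.26, adjusted p = 0.0762), Scn2b (2.09 ± 0.55, adjusted p = 0.0897) and Cacna2d2 (1.38 ± 0.38, adjusted p = 0.104) did not pass the threshold. The median over the tested channel rows was 0.34, against −0.03 over all tested genes. In the same test 5 of 8 stellate markers and 1 of 5 endothelial markers had a larger effect at 12w, and their part in the result was not tested. DESeq2 called 6 channel rows in this comparison, with 3.51% of all tested genes called, and omitting replicate 2 or 4 of Wt 12w gave 4, with 1.64% and 3.52%.

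The third comparison followed Wt islets from 2w to 12w, that is, their course without the transgene. It called 6 of the 32 tested rows (18.8%), all lower at 12w, beside 15.8% of all tested genes, 7.90% higher and 7.91% lower. The median log2 fold change was −0.28 over the tested channel rows and 0.04 over all tested genes. Cacna1c fell from 72.0, 75.4 and 86.4 CPM in Wt 2w to 37.2, 39.9 and 55.3 CPM in Wt 12w, a log2 fold change of −0.82 ± 0.14 (adjusted p = 0.00179). Cacng7 fell by 1.67 ± 0.33 on the log2 scale (adjusted p = 0.00405), Scn7a by 2.03 ± 0.49 (adjusted p = 0.0133), Cacna1g by 1.61 ± 0.41 (adjusted p = 0.0178) and Scn2b by 1.52 ± 0.41 (adjusted p = 0.0238). Scn2b was at 2.20, 2.58 and 1.92 CPM and Cacna1g at 2.91, 3.24 and 2.61 CPM in Wt 2w. All Wt 12w libraries lay below all Wt 2w libraries for these 5 genes. Cacna1e, an R-type channel at the edge of detection, was at 0.771, 1.18 and 0.851 CPM in Wt 2w and 0, 0.397 and 0.200 CPM in Wt 12w (log2 fold change −2.05 ± 0.66, adjusted p = 0.049), and kept its call only on omitting replicate 2 of Wt 12w. Omitting replicate 1 or 2 of Wt 2w left 3 calls, with 12.3% and 8.11% of all tested genes called. Cacna1g lost its call without replicate 2 of Wt 2w or replicate 1 of Wt 12w (adjusted p = 0.064 and 0.0557), Scn7a without replicate 1 of Wt 2w (adjusted p = 0.0561), and Scn2b without any Wt 2w library or replicate 1 or 4 of Wt 12w (adjusted p 0.0503 to 0.0848). With library size alone the number of calls rose to 14, all lower, with 25.8% of all tested genes called, while the median of all genes moved to −0.35. Over the same interval in Wt islets all 5 endothelial, 6 of 8 stellate, 2 of 6 Schwann cell and 1 of 7 neuronal markers were called lower, and their part in these decreases was not tested.

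In Tg7 islets the same interval gave 6 genes higher and 4 lower at 12w, that is 10 of the 32 tested rows (31.2%), beside 13.0% of all tested genes, 7.02% higher and 6.01% lower. Without Cacna1f it was 9 of 31, 5 higher and 4 lower. The medians were 0.22 over the tested channel rows, with or without Cacna1f, and −0.01 over all tested genes. Cacng7 and Scn7a, lower with age in Wt islets, were higher with age in Tg7 islets, by a log2 fold change of 1.38 ± 0.26 (adjusted p = 0.00345) and 1.57 ± 0.41 (adjusted p = 0.0212). Cacna2d2 rose from 3.95, 3.96 and 3.58 CPM in Tg7 2w to 8.52, 8.08 and 7.78 CPM in Tg7 12w (1.08 ± 0.26, adjusted p = 0.0126), Cacnb1 rose by 0.72 ± 0.18 from 18.1, 21.9 and 22.1 CPM (adjusted p = 0.0157) and Scn3b by 0.65 ± 0.18 (adjusted p = 0.03). Cacna1f, the L-type channel of photoreceptors, was at 0.107, 0.0650 and 0.199 CPM in Tg7 2w and 1.35, 1.38 and 0.915 CPM in Tg7 12w, but also at 1.59 CPM in Wt 12w replicate 2.

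Cacna1c was again lower at 12w, from 57.2, 58.0 and 54.4 CPM in Tg7 2w to 30.2, 29.6 and 28.6 CPM, a log2 fold change of −0.94 ± 0.14 (adjusted p = 0.000784). The T-type genes Cacna1h and Cacna1i were lower as well. Cacna1h went from 16.5, 16.04 and 13.6 CPM to 9.47, 9.68 and 9.55 CPM (−0.68 ± 0.16, adjusted p = 0.0133), and Cacna1i from 5.60, 5.46 and 6.76 CPM to 1.64, 1.05 and 1.66 CPM (−2.03 ± 0.40, adjusted p = 0.0043). In Wt islets Cacna1i was at 3.92, 4.35 and 3.41 CPM at 2w and at 1.51, 1.75 and 4.80 CPM at 12w, where replicate 4 was the high one. The α2δ gene Cacna2d4 fell from 6.67, 8.96 and 9.19 CPM to 1.64, 2.71 and 2.17 CPM (−1.92 ± 0.32, adjusted p = 0.00141). Cacna1c, Cacna1i, Cacna2d4 and Cacng7 kept their call with every library left out. Omitting replicate 1 of Tg7 2w left 6 calls, with 8.98% of all tested genes called, and omitting replicate 2 of Tg7 12w left 5, with 7.38%. Cacna1h, Cacna2d2, Cacnb1, Scn7a and Scn3b each lost their call on omitting at least 1 library of Tg7 2w or Tg7 12w, with adjusted p-values of 0.0516 to 0.119. In Tg7 islets 6 of 8 stellate and 1 of 5 endothelial markers were lower and 1 of 6 Schwann cell and 1 of 7 neuronal markers higher at 12w, and their part in these changes was not tested. The Wt and Tg7 age comparisons use different libraries, but each shares its libraries with the comparisons between genotypes.

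**Figure D4:**
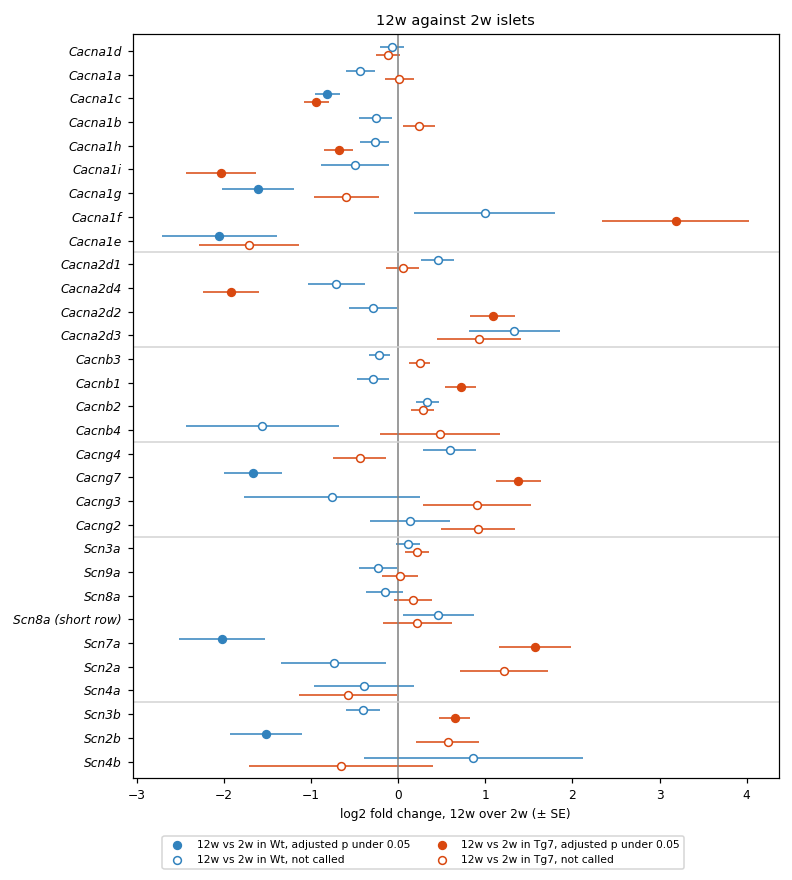
Log2 fold change of 12w over 2w (± SE) in Wt (blue) and Tg7 (orange) islets for 31 tested rows; filled points have an adjusted p under 0.05. The filled point of Cacna1f, which passed the expression filter through its Tg7 12w libraries, is not used as a result. Cacna1c is filled and below 0 in both genotypes, while Cacng7 and Scn7a are filled on opposite sides of 0.

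The make-up of each class per length describes how these changes shifted the channel repertoire. Cacna1d supplied 39.9% ± 0.255, 43.4% ± 0.881, 47.8% ± 5.52 and 46.7% ± 0.515 of the summed α1 RPKM in Wt 2w, Tg7 2w, Wt 12w and Tg7 12w (SD, n = 3). The share of Cacna1c went from 22.8% ± 0.484 in Wt 2w to 16.2% ± 2.36 in Wt 12w, and was 19.0% ± 0.843 in Tg7 2w and 11.5% ± 0.593 in Tg7 12w. Cacna1b made up 5.87% ± 1.44 of the class in Wt 12w and 9.72% ± 0.108 in Tg7 12w. In the γ class Cacng4 held 91.2% ± 4.49 in Wt 12w and 32.8% ± 2.32 in Tg7 12w, where Cacng7 held 52.2% ± 0.602. The summed sodium α level was 13.0 ± 1.31 RPKM in Wt 12w and 22.7 ± 1.20 RPKM in Tg7 12w, with all Tg7 libraries above all Wt libraries. The sodium α sums were 13.5 ± 0.731 RPKM in Wt 2w and 19.4 ± 0.656 RPKM in Tg7 2w. All sodium α sums count Scn8a by both of its rows. The short row supplied 10.1% in Wt 2w, 8.68% in Tg7 2w, 14.3% in Wt 12w and 8.55% in Tg7 12w. These sums and shares are descriptions and were not tested.

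**Figure D5:**
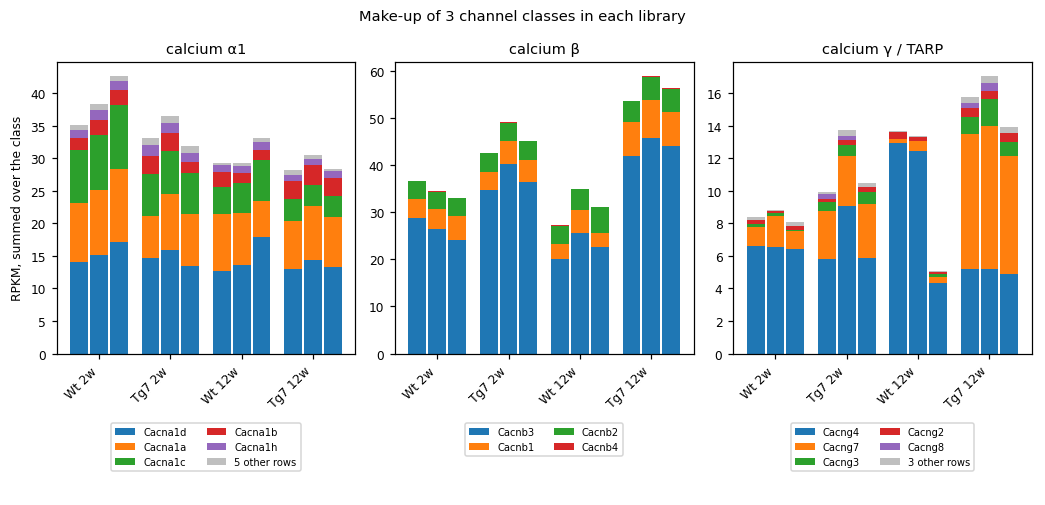
RPKM of the most abundant genes in 3 calcium channel classes, stacked for each of the 12 libraries (bars), in groups of 3. The α1 stacks are dominated by Cacna1d in all groups, the γ stacks by Cacng4 in Wt and by Cacng7 in Tg7 12w, and the β stacks, made mainly of Cacnb3, are taller in Tg7 than in Wt at both ages.

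Several members lie side by side in the genome, so position was compared with the 12w result. Scn3a, Scn2a, Scn1a, Scn9a and Scn7a lie within chr2:65295175-66622971 (mm9), and the 4 of them that could be tested were all upregulated at 12w, beside 12.5% of all tested genes called higher. The other tested genes in that interval, Galnt3 and Ttc21b, were not called at 12w, with log2 fold changes of −0.24 and 0.00. At 2w Galnt3 was called higher in Tg7 (1.32, adjusted p = 0.0375) and Ttc21b was not called (0.16, adjusted p = 0.68). These sodium channel genes are paralogs of similar sequence, and the sources do not state how reads with several matches were counted. Cacng7, Cacng8 and Cacng6 lie within chr7:3333055-3435658. Cacng8 and Cacng6 had 9 and 12 counts in Tg7 12w and 0 in Wt 12w. Cacng4 lies between Cacng1 and Cacng5 on chromosome 11, both of which were below 50 counts. Scn2b and Scn4b are neighbours within chr9:44925959-44962235, and only Scn2b was called.

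Lists of channel partners held 55 genes, and 50 passed the filter. At 2w 9 partners, or 18% of those tested, were called (3 higher, 6 lower), beside 10.6% of all tested genes. At 12w 18 partners, or 36%, were called (11 higher, 7 lower), beside 23.6% of all tested genes. Among 17 channel regulators and partners, 5 (29.4%) were upregulated at 12w and none downregulated, beside 12.5% and 11.2% of all tested genes. Fgf14, a fibroblast growth factor homologous factor that binds sodium channel α subunits, had the largest change, with log2 fold changes of 2.14 ± 0.38 at 2w and 2.79 ± 0.39 at 12w (adjusted p = 0.00314 and 0.000203). Its relative Fgf12 was higher at 12w (1.05 ± 0.24, adjusted p = 0.00624). Nedd4l, a ubiquitin ligase that targets sodium channels, was higher at both ages (0.62 ± 0.12 and 0.68 ± 0.12, adjusted p = 0.00504 and 0.00127). The RGK proteins Rem1 and Rrad, which inhibit calcium channels, were higher at 12w (1.78 ± 0.52 and 1.20 ± 0.40, adjusted p = 0.0246 and 0.0447). Both tested AMPA receptor subunits, the partners of TARPs, were higher at 12w (Gria2 1.06 ± 0.20, adjusted p = 0.00171; Gria3 0.55 ± 0.18, adjusted p = 0.0385).

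Genes that move calcium within and out of the cell changed in both directions. The endoplasmic reticulum pump Atp2a2 (SERCA2) was lower at both ages, with log2 fold changes of −1.58 ± 0.27 and −1.87 ± 0.27 (adjusted p = 0.00215 and 0.000245), and so was Atp2a3 (SERCA3), with −0.69 ± 0.17 and −1.03 ± 0.17 (adjusted p = 0.019 and 0.000691). The plasma membrane pump Atp2b2 (1.45 ± 0.14, adjusted p = 1.14e-05), the sodium-calcium exchanger Slc8a2 (1.56 ± 0.28, adjusted p = 0.00135) and the ryanodine receptor Ryr2 (2.85 ± 0.48, adjusted p = 0.000828) were higher at 12w. The inositol trisphosphate receptors Itpr2 (−0.58 ± 0.18, adjusted p = 0.0362) and Itpr3 (−0.59 ± 0.17, adjusted p = 0.0211) were lower at 12w. Of the other depolarising channels, the sodium leak channel Nalcn was higher at both ages (0.62 ± 0.18 and 0.54 ± 0.18, adjusted p = 0.0432 and 0.0456). The calcium-activated cation channel Trpm5 had log2 fold changes of −4.16 ± 0.34 at 2w and −6.19 ± 0.37 at 12w (adjusted p = 8.93e-06 and 1.62e-07). Trpm2 was lower at 2w (−0.76 ± 0.19, adjusted p = 0.0207) and Tpcn1 at 12w (−0.48 ± 0.13, adjusted p = 0.0183). The KATP channel genes were lower at 2w, with −1.12 ± 0.16 for Kcnj11 and −1.23 ± 0.17 for Abcc8 (adjusted p = 0.00074 and 0.000475), and Kcnj11 also at 12w (−0.61 ± 0.16, adjusted p = 0.0138).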

How the data were processed

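Per the labels and the study's methods, islet RNA was made into NEB Ultra II libraries, which were read from both ends on a HiSeq2500. The authors trimmed reads with Trimmomatic, aligned them to mm9 (NCBIM37) with TopHat2 2.0.11 and deposited raw counts per Ensembl gene from featureCounts. The labels name bcl2fastq 2.20.0. The sources do not state whether counting used strand.

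Groups were taken from the labels (4 groups, 3 libraries each). Symbols, exon lengths and 3′ UTRs came from GENCODE vM1 (mm9), and current symbols and miRNA sequences from RefSeq (GRCm38.p6). Genes were filtered with filterByExpr (minimum count 10, minimum total 15, leaving 15961 of 37991), scaled with TMM factors and fitted as group means with glmQLFit and glmQLFTest in edgeR 4.0.16 (R 4.3.3). All p-values come from this test, adjusted by Benjamini-Hochberg over all tested genes, unless DESeq2 1.42.0 is named. SE was taken as the ratio of the fold change (log2) to √F, and 95% intervals use the t distribution of the fit. RPKM uses TMM-scaled library sizes and the union of exons. Values were given in full for members called in at least 1 of 5 comparisons, the highest per class, Cacna1c and Cacna1d. The results of 2 members are not reported here, although counts, class sums and the model include them. The members, gene lists and markers were chosen with earlier results of these data known. Counts cover 11610697 to 17515758 reads per library, and counting intervals and floors cover counting error only. The method was tested on simulated data. Alternatives were DESeq2, scaling by upper quartile or by library size alone, omission of the filter, a total of at least 50 counts, a replicate block, each age alone and each library left out. Figures were drawn with matplotlib 3.10.9.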

Additional observations from a re-analysis of the deposited data

Results flagged for a closer look

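The Tg7 effect differed between the ages for 2 channel genes, by the direct test of the difference (edgeR's quasi-likelihood test). For Cacng7 the log2 effect at 12w exceeded that at 2w by 3.05 ± 0.42 (SE; adjusted p = 0.00268). The Tg7 libraries were all above the Wt libraries at both ages, with means of 3.12 RPKM in Tg7 and 1.38 RPKM in Wt at 2w, and 8.12 RPKM and 0.412 RPKM at 12w. For Scn7a the effect at 12w exceeded that at 2w by 3.60 ± 0.64 (adjusted p = 0.0145), with means of 0.541 RPKM in Tg7 and 0.450 RPKM in Wt at 2w, and 1.59 RPKM and 0.108 RPKM at 12w. In both genes the Wt level fell and the Tg7 level rose between the ages.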

How the results depend on the processing

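Of the 15 channel rows called between Tg7 and Wt at 12w, 11 were called in every alternative, and of those at 2w 1 of 4. The 11 include Cacng3, whose call is not used as a result. Both calls of the difference between ages held throughout, and so did 2 of 6 in Wt and 4 of 10 in Tg7 between the ages. The number called at 2w was 4, and became 8 with DESeq2, 7 with library size alone, 7 with upper-quartile factors and 9 with each age alone, while the share of all tested genes called went from 10.6% to 14.6%, 12.4%, 11.4% and 15.4%. For the difference between ages the number was 2, and became 6 with DESeq2, 5 with library size alone and 4 with no filter, beside 1.18% of all tested genes and then 3.51%, 2.17% and 1.75%. In Wt between the ages it was 6, and 14 with library size alone, beside 15.8% and 25.8% of all tested genes. With single libraries left out, the number called was 1 to 10 at 2w, 12 to 16 at 12w, 3 to 8 in Wt and 5 to 11 in Tg7 between the ages, and 2 to 4 for the difference. The share of all tested genes called was then 4.59% to 18.7% at 2w and 14.7% to 24.5% at 12w. It was 8.11% to 24.4% in Wt and 6.79% to 20.2% in Tg7 between the ages, and 0.5% to 3.52% for the difference. Library size alone moved the all-gene median (log2) from 0.03 to 0.19 at 2w and from −0.01 to 0.43 at 12w. The small negative log2 fold change of Cacna1d turned positive with library size alone (0.085 at 2w, 0.31 at 12w) and with the replicate block at 12w (0.043), and ranged from −0.14 to 0.00049 at 2w and from −0.24 to 0.049 at 12w with single libraries left out, never called. The cause of these shifts was not tested.

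Replicate numbers are shared between the groups, but same-numbered libraries did not deviate together (correlations −0.0214, −0.167 and −0.0343 at 2w, −0.0894 and −0.0112 at 12w), so they were not treated as pairs. With the replicate block the number called was 8 at 2w, 13 at 12w, 7 in Wt and 10 in Tg7 between the ages, and 5 for the difference; Wt 12w replicate 4 has its own level there and carries no weight. Of all tested genes the block called 16.5% at 2w, 22.4% at 12w, 23.9% in Wt and 19.3% in Tg7 between the ages, and 3.15% for the difference. With it the adjusted p was 0.0648 for Cacna1b and 0.0646 for Cacna1g at 12w, 0.0102 for Cacna1c at 2w, and 0.0868 for Cacna1e and 0.0668 for Scn2b between the ages in Wt. Low genes were left out by the expression filter, and what this depth would allow for them was not tested.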
